A study of Mus musculus with 4 samples.

Results

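The transcripts of proteasome genes were followed in BV-2 cells, an immortalised mouse line that stands in for microglia, the macrophages of the brain, after lipopolysaccharide (LPS), a bacterial outer membrane molecule that Toll-like receptor 4 binds. Members were all genes of the deposited count table whose symbol starts with Psma, Psmb, Psmc, Psmd, Psme, Psmf or Psmg followed by a digit. There were 51 such genes, with 57 RefSeq transcript records, among 23783 genes and 32915 records in all, and each gene was represented by its most abundant record. BV-2 cells exposed for 4 h to 10 ng/ml LPS were set against BV-2 control cells, with 2 RNA-seq libraries in each group. The labels give no other difference between the groups. They do not state whether the libraries of a group are separate cultures, and p-values thus reflect a spread that may be only technical.

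The 26S proteasome degrades proteins marked with ubiquitin. Its 20S core is a barrel of 4 stacked rings, the outer pair built of alpha subunits (Psma) and the inner pair of beta subunits (Psmb), of which Psmb5, Psmb6 and Psmb7 carry the proteolytic sites. The 19S cap adds a ring of ATPases (Psmc), which unfold the substrate, and non-ATPase subunits (Psmd), which bind and remove ubiquitin. In immune cells, and after interferon gamma in most cells, Psmb8, Psmb9 and Psmb10 take the places of Psmb5, Psmb6 and Psmb7 in newly built cores, which are then called immunoproteasomes and cut peptides for presentation on MHC class I. Psme1 and Psme2 form PA28, an interferon-inducible ring that opens the core. Of the 51 symbols, 49 name subunits, activators, an inhibitor or assembly factors. Psmc3ip, a meiotic recombination cofactor, and Psme3ip1, a partner of an activator, match the pattern without being subunits and were set apart.

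The libraries held 3368693 and 3082538 counts after LPS and 2778686 and 3059196 counts in controls. The 5 most abundant records took 57.7% and 56.9% of the LPS libraries and 67.5% and 53.4% of the control libraries. The proteasome genes together made up 1.13% and 1.12% of the remaining counts after LPS, against 1.07% and 1.05% in controls. The treatment was visible in genes chosen as a check of the labels, with Il1b at 2152 and 2118 counts after LPS and 2 and 6 counts in controls. All 3 of the 4 check genes that could be tested rose. Of 10 macrophage markers 5 were tested, Tyrobp, Csf1r, Spi1, Fcer1g and Cd68, and Spi1 alone rose (log2 fold change 1.15, edgeR adjusted p 0.00391). The 10 summed to 3060.0 and 2878 counts in LPS libraries and 1843 and 2582 in control libraries, and the 2-record genes Itgam and Trem2 had no more than 1 count. Ptprc, with 3 records, had at most 5 counts in a library, whereas the more abundant of the 2 Cd68 records held 63 to 86. Aif1 and Cx3cr1, with 1 record each, were also below the count filter. Aif1 had 4 and 3 counts in LPS libraries and 3 and 7 in control libraries, and Cx3cr1 had 9 and 8 against 4 and 2. All 5 oligodendrocyte markers were at 0, and the 5 astrocyte and 5 neuron markers summed to at most 2 counts in a library. Of these, 2 oligodendrocyte, 2 astrocyte and 4 neuron markers have 2 or more records, so that their counts were not read as levels. The control libraries differed along the GC content of the transcript. Across the 42 proteasome members tested, the log2 ratio of control replicate 1 to control replicate 2 had a Spearman's rho of 0.70 with GC content. For the LPS libraries it was 0.28. Over all 6956 tested records with a GC content the values were 0.66 and 0.27. Genes share the libraries and are not independent replicates.

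No proteasome member passed the test for a change after LPS. In bulk RNA, fewer cells with a transcript and less of it per cell cannot be told apart. Of the 51 genes, 42 had enough counts to be tested, and 0 of them reached the threshold of 0.05 on the adjusted p of edgeR (quasi-likelihood). The same test called 5.53% of all 6981 records, 3.82% higher and 1.7% lower. The DESeq2 Wald test also called 0 of the 42, where it called 3.85% of all records. At an unadjusted p below 0.05 in edgeR, 2 members were higher and 0 lower, against 7.92% and 7.49% of all records. The fitted log2 fold changes of LPS over control ran from -0.14 to 0.47 with a median of 0.13, beside a median of -0.01 over all records tested. They lay above 0 in 32 of the 42 members, or 76.2%, and in 48.3% of all records. Both LPS libraries stood above both controls in 15 members, or 35.7%, and below both in 1, or 2.38%, where 21.4% and 21.9% of all records did so. These shares describe the list and were not tested. The 95% interval of the fold change stayed below 2-fold higher in 41 of the 42 members, Psmb9 being the exception, and above 2-fold lower in all 42.

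**Figure D1:**
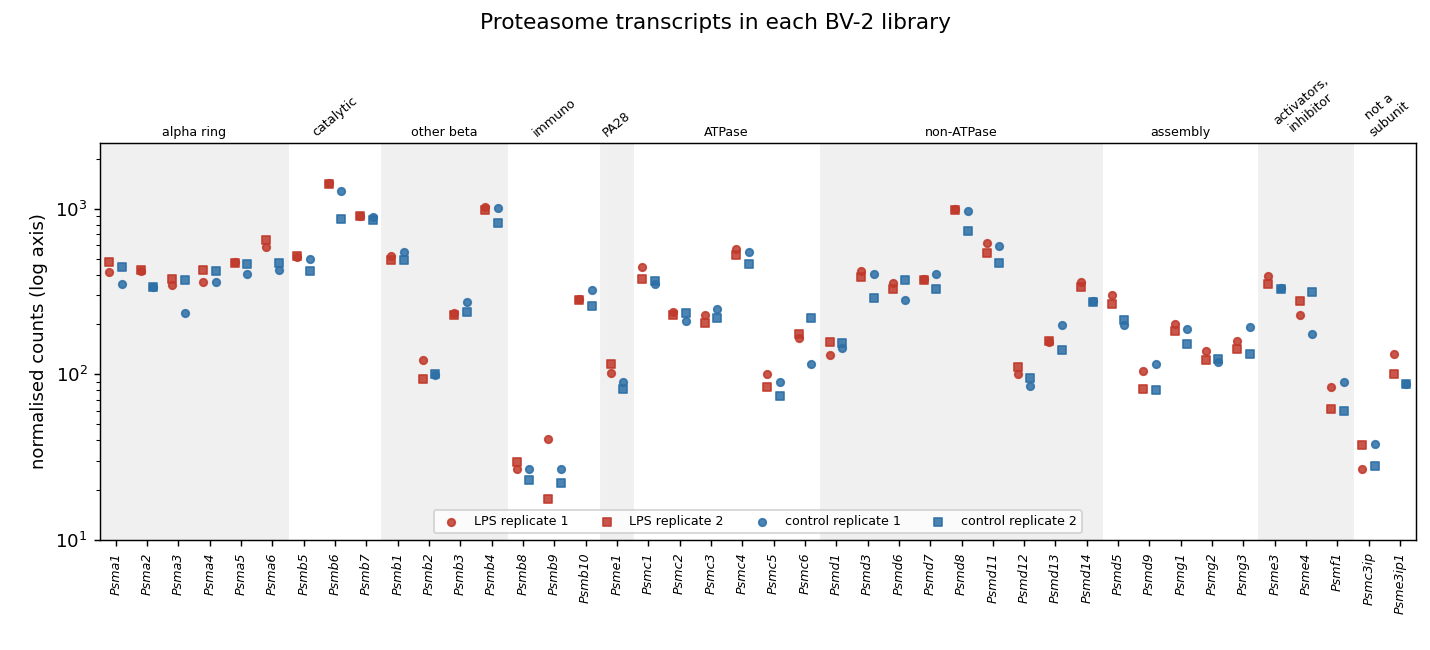
Normalised counts (log axis) of the 42 tested members in each library, grouped by role, with the LPS libraries in red on the left and the control libraries in blue on the right of each gene. Libraries of the same group lie apart for some members, such as Psmb9 after LPS (40.7 and 17.6) and Psmc6 in controls (115 and 218). Psmb6 is the most abundant member at 1427 and 1417 after LPS, and Psmb8 and Psmb9 lie at or below 40.7 in all 4 libraries.

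The calls depended on which control library was kept. A fit with 1 control left takes its spread from the LPS pair, so its calls do not include the spread between controls. Without control replicate 1, Psmb6, Psmd3, Psma6 and Psmd8 were called higher, where 8.54% of all records were. Without control replicate 2, Psma3, Psma6, Psmc6, Psmd5 and Psme4 were called higher, where 10.8% of all records were. Only Psma6 was in both sets. When offsets for transcript length and GC content entered the fit, Psmb6 alone was called higher, with a log2 fold change of 0.47 and an edgeR adjusted p of 0.0255, where 6.53% of all records were called higher. With these offsets Psmb6 was called again without control replicate 1, beside Psma2 and Psmd8 (7.13% of all records higher), and alone without control replicate 2 (5.49%). With the replicate number as a block no member was called, where 9.87% of all records were, and with block and offsets together Psmb6, Psmd3, Psma6 and Psmd5 were called higher, where 8.95% were.

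**Figure D2:**
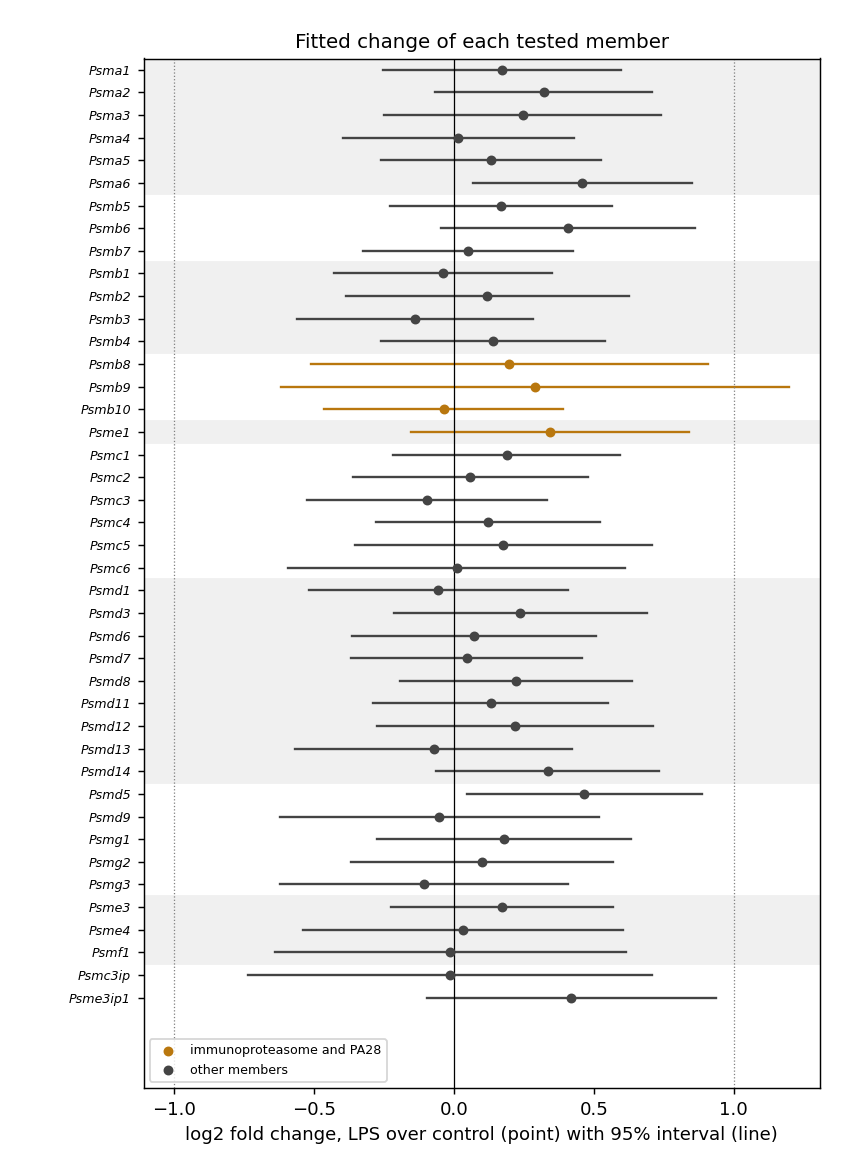
Fitted log2 fold change of LPS over control for each tested member (point) with its 95% interval (line), in the same order of roles, with immunoproteasome and PA28 genes in ochre and dotted lines at 2-fold. The points run from -0.14 (Psmb3) to 0.47 (Psmd5), and the interval of Psmb9 is the widest on the upper side, reaching 1.20.

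The inducible catalytic subunits gave no call and were set against the constitutive ones they replace. Psmb8 (NM_010724, chromosome 17, 34198195 to 34201454, GRCm38), the chymotrypsin-like subunit of the immunoproteasome, had 26.8 and 29.3 normalised counts in LPS libraries and 26.7 and 22.8 in control libraries. The LPS values lay above the controls by less than 1 count at the nearest pair. Its log2 fold change was 0.20 (SE 0.322, edgeR adjusted p 0.892), with a 95% interval of 0.701-fold to 1.87-fold. Psmb9 (NM_013585, chromosome 17, 34182030 to 34187330), the caspase-site replacement, had 40.7 and 17.6 normalised counts in LPS libraries and 26.7 and 21.9 in control libraries. The LPS libraries thus lay on either side of the controls. Its log2 fold change was 0.29 (SE 0.413, adjusted p 0.871), and it was -0.44 without LPS replicate 1 and 0.75 without LPS replicate 2, neither of which was called. Psmb10 (NM_013640, chromosome 8, 105935728 to 105938392), the trypsin-like subunit, was the most abundant of the inducible genes, with 283.8 and 280.7 normalised counts in LPS libraries and 323.5 and 258.3 in control libraries. Its controls enclosed the LPS values, and the log2 fold change was -0.04 (SE 0.194, adjusted p 0.976), with an interval of 0.725-fold to 1.31-fold. The log2 fold change was 0.02 with the GC and length offsets, 0.13 without control replicate 1 and -0.20 without control replicate 2.

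Among the constitutive catalytic genes, Psmb6 (NM_008946, chromosome 11, 70525324 to 70527858), the caspase-like subunit, had 1427 and 1417 normalised counts in LPS libraries and 1281 and 869 in control libraries. Both LPS values were above both controls, and the controls differed from each other by more than the LPS mean differed from control replicate 1. The log2 fold change was 0.41 (SE 0.207, adjusted p 0.404). It was 0.71 without control replicate 1 and 0.15 without control replicate 2. With the GC and length offsets these values were 0.60 and 0.34. Fits with 1 control left take their spread from the LPS pair, which was narrower than the control pair for Psmb6. Psmb5 (NM_011186, chromosome 14, 54614120 to 54617995), the chymotrypsin-like subunit, had 509 and 518 normalised counts in LPS libraries and 494 and 423 in control libraries (log2 fold change 0.17, SE 0.180, adjusted p 0.808). Psmb7, the trypsin-like subunit, had 909.7 and 903.6 normalised counts in LPS libraries and 893 and 860.0 in control libraries (log2 fold change 0.05, SE 0.170, adjusted p 0.958). All 3 constitutive genes had LPS values above both controls, where 21.4% of all records did so, and none passed the test. For Psmb7 the nearest values were 903.6 after LPS and 893 in controls.

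Within each pair, the inducible share did not shift with LPS beyond its error. Per kilobase of transcript, Psmb8 made up 2.82% and 3.03% of the Psmb8 and Psmb5 counts in LPS libraries, and 2.90% and 2.89% in control libraries. The exact (Clopper-Pearson) 95% intervals overlapped throughout and together ran from 1.75% to 4.52%. For Psmb9 and Psmb6 the Psmb9 share was 1.65% (interval 1.20% to 2.22%) in LPS replicate 1 and 0.728% (0.431% to 1.15%) in LPS replicate 2, against 1.22% and 1.47% in control libraries. The LPS intervals thus did not overlap, and the control shares lay between the LPS shares. Psmb10 made up 21.6% and 21.6% of the Psmb10 and Psmb7 counts per kilobase in LPS libraries, and 24.3% and 21.0% in control libraries. The intervals cover counting error only and leave out variation between libraries. Since the libraries carry no molecular identifiers, the intervals may be too narrow even for counting error. The log2 count ratio of inducible to constitutive gene, LPS minus control, was 0.00 for Psmb8 to Psmb5, -0.29 for Psmb9 to Psmb6 and -0.08 for Psmb10 to Psmb7. An exact two-sided permutation test over the 4 libraries gave p = 1 for each of the 3 pairs, also after Benjamini-Hochberg adjustment, in a design whose smallest p is 0.333. From the fit, the differences of the log2 fold changes were 0.03 (SE 0.369), -0.12 (SE 0.462) and -0.09 (SE 0.258), where each SE combines those of both genes as if independent.

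**Figure D3:**
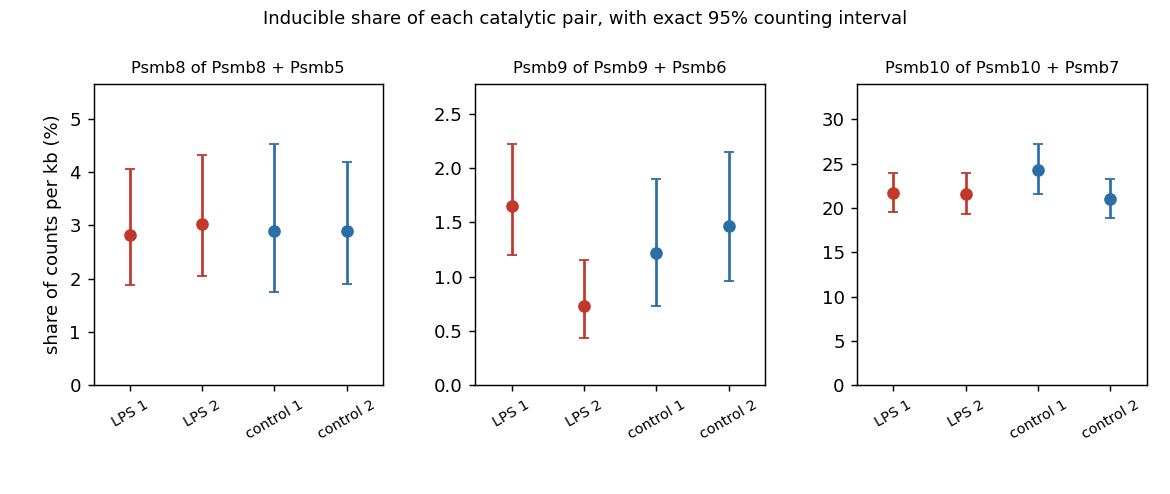
Share of the inducible subunit in the counts per kilobase of each catalytic pair (%), per library, with LPS libraries in red on the left, control libraries in blue on the right, and exact 95% counting intervals as bars. The Psmb8 share lies between 2.82% and 3.03% in all 4 libraries, the Psmb9 shares of the LPS libraries lie on both sides of the controls, and the Psmb10 share is the largest at 21.0% to 24.3%.

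The 250 bases before the annotated start are shown for the inducible catalytic genes and Psme1, the interferon-inducible PA28 gene measured here, with Psmb5 and Psmb6 beside the genes that replace them. They come from RefSeq on GRCm38.p6 and are written 5′ to 3′ on the strand of the gene, with matches in capitals. Positions are counted from the start in the RefSeq promoter table, which for Psmb6 lies inside the annotated span of the gene. The letters searched on both strands were GAAA and GAAA with any 2 bases between them for an interferon-stimulated response element, TTCNNNGAA for a STAT site, GGGAC followed by TTTCC with up to 1 mismatch for an NF-kB site and TGACNNNGC for the antioxidant response element that NRF1 and NRF2 factors bind.
Psmb8 (chr17:34197945-34198194, plus strand): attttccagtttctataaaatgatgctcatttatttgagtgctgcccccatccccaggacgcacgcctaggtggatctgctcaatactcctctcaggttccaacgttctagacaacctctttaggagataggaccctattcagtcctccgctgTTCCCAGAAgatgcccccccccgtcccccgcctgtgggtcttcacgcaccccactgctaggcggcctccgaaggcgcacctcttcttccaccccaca
Psmb5 (chr14:54617996-54618245, minus strand): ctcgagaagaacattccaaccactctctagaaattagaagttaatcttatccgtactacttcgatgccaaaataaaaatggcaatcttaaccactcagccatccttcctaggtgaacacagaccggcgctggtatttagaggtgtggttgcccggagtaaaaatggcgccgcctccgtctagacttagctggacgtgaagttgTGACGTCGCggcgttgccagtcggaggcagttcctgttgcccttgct
Psmb9 (chr17:34187331-34187580, minus strand): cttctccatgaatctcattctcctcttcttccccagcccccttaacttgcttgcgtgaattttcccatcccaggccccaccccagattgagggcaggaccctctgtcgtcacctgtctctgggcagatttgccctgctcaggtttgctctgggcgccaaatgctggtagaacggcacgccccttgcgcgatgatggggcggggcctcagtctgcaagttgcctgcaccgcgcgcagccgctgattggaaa
Psmb6 (chr11:70525107-70525356, plus strand): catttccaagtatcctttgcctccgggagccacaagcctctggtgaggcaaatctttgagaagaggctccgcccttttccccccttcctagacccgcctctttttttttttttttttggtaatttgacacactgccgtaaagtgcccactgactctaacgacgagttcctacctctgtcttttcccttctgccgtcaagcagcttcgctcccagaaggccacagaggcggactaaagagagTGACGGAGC
Psmb10 (chr8:105938393-105938642, minus strand): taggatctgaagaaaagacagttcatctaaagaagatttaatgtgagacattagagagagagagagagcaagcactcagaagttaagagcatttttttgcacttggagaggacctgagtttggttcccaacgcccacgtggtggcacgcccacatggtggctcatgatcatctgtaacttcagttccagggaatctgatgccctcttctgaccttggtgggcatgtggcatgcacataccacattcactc
Psme1 (chr14:55578244-55578493, plus strand): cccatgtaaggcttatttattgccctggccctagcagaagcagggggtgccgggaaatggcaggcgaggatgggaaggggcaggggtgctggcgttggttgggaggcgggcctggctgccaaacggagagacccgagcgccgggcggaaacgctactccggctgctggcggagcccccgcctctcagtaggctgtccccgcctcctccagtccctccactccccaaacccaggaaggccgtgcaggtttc
The capitals in Psmb8 are a STAT site match 97 to 89 bases before the start. Those in Psmb5 and Psmb6 are antioxidant response element matches, 47 to 39 and 9 to 1 bases before the start, and Psmb9, Psmb10 and Psme1 had no match to any of the 4 motifs. Over 32851 promoters of the same length, 2.98% held the interferon motif, 7.02% the STAT site, 2.30% the NF-kB site and 10.2% the antioxidant element. Among 44 promoters of proteasome genes, 3 held the interferon motif (Psmb3, Psmd4 and Psmd9), 2 the STAT site (Psmb8 and Psmg1), 0 the NF-kB site and 5 the antioxidant element (Psmb5, Psmb6, Psmc6, Psmd12 and Psmd9). A match is a description of the letters and not of binding.

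Psme1 (NM_011189, chromosome 14, 55578494 to 55581527), the alpha subunit of PA28, had 102 and 114 normalised counts in LPS libraries and 90.0 and 81.0 in control libraries. Both LPS values were above both controls, and the log2 fold change of 0.34 did not pass the test (SE 0.226, adjusted p 0.576, interval 0.899-fold to 1.79-fold). Its span overlaps that of Emc9, as those of Psma3, Psma4, Psmb5, Psmd1, Psme4, Psmf1, Psmc3ip and Psme3ip1 overlap other genes, and the strand setting of the counting is not given in the sources used here. Its partner Psme2 has 2 records that held at most 2 counts in a library, so the beta subunit of PA28 was not measured. Psme2b had 8 and 7 counts in LPS libraries and 2 and 9 in control libraries and was below the count filter. With Psmb8, Psmb9 and Psmb10, 4 of the 6 immunoproteasome and PA28 genes were tested, 0 were called, and their median log2 fold change was 0.24.

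The alpha ring gates the entry to the core. Of its 7 genes 6 were tested, 0 were called, and all 6 fitted log2 fold changes lay above 0, with a median of 0.21. Psma6 (NM_011968, chromosome 12, 55384222 to 55418459) had 589.9 and 650.3 normalised counts in LPS libraries and 429 and 473 in control libraries. The groups did not overlap, and at 0.46 (SE 0.178) its log2 fold change was the largest of the core, with an unadjusted edgeR p of 0.0259 and an adjusted p of 0.229. Psma2 had 418 and 426 normalised counts in LPS libraries and 338 and 338 in control libraries, a log2 fold change of 0.32 (adjusted p 0.459), again without overlap. With the GC and length offsets it was 0.13 (edgeR adjusted p 0.779), 0.53 without control replicate 1 and -0.27 without control replicate 2. Psma3, whose N-terminal tail helps to close the gate, had 347 and 375 normalised counts in LPS libraries and 235 and 369 in control libraries. Control replicate 1 alone was low. The log2 fold change was 0.25 with both controls, -0.03 without control replicate 1 and 0.62 without control replicate 2. The GC and length offsets gave 0.11 without control replicate 2. Psma1, Psma4 and Psma5 had log2 fold changes of 0.17, 0.02 and 0.13, with LPS means of 447, 395 and 474 normalised counts and control means of 396, 390.3 and 432.

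The beta subunits without a catalytic site complete the inner rings, and all 4 were tested with 0 calls and a median log2 fold change of 0.04. Psmb4, the most abundant of them, had 1031 and 989 normalised counts in LPS libraries and 1017 and 819.5 in control libraries, a log2 fold change of 0.14 (adjusted p 0.856). Psmb3 had 233 and 229 normalised counts in LPS libraries and 274 and 236 in control libraries. It was the 1 member with both LPS libraries below both controls, and its log2 fold change was -0.14 (SE 0.191, adjusted p 0.865). Psmb1 and Psmb2 had log2 fold changes of -0.04 and 0.12.

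The 6 ATPases, Psmc1 to Psmc6, were all tested and none was called, with a median log2 fold change of 0.09 and a range of -0.10 to 0.19. Psmc4 was the most abundant, with 570.4 and 527 normalised counts in LPS libraries and 549 and 463 in control libraries, and the groups overlapped. Psmc1 had 444 and 375 normalised counts in LPS libraries and 350.2 and 368 in control libraries (log2 fold change 0.19, adjusted p 0.783). It was the only ATPase whose groups did not overlap, or 16.7% of the 6. Both LPS libraries stood above both controls in 21.4% of all records. Psmc6 showed the widest gap between controls, with 165 and 176 normalised counts in LPS libraries and 115 and 218 in control libraries. Its transcript had the lowest GC content of the tested members, 37.0%. Its log2 fold change was 0.01 with both controls, 0.56 without control replicate 2 and -0.36 without control replicate 1. With the GC and length offsets it was -0.18 without control replicate 2 and -0.10 without control replicate 1.

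**Figure D4:**
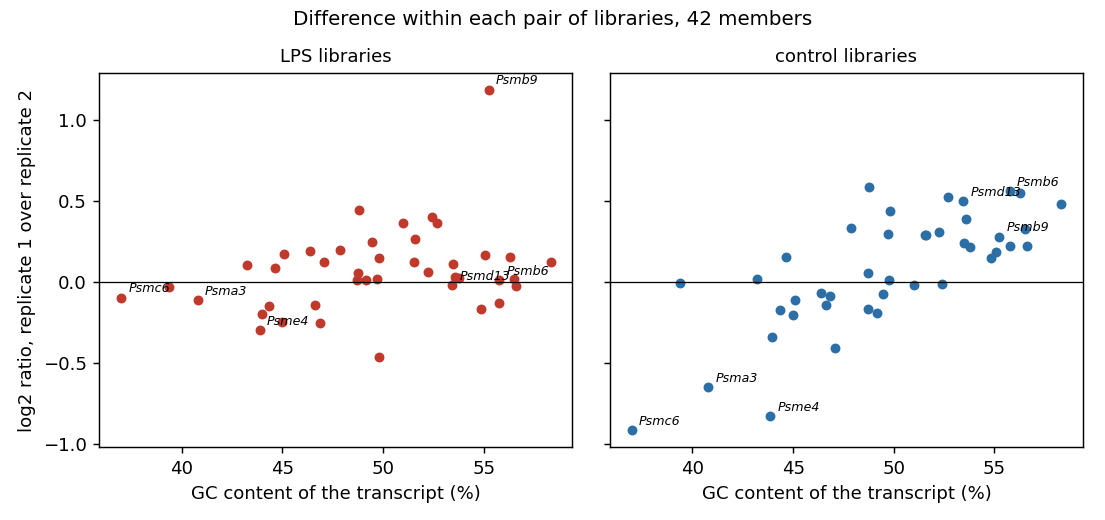
Log2 ratio of replicate 1 to replicate 2 against the GC content of the transcript for the 42 tested members, with the LPS pair on the left and the control pair on the right. In the control pair the ratio runs from -0.91 (Psmc6, 37.0% GC) to 0.58 and follows GC content (rho 0.70), whereas in the LPS pair it is flatter (rho 0.28) with Psmb9 apart at 1.19.

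Of the 11 non-ATPase subunits 9 were tested, 0 were called, and 7 had a log2 fold change above 0, with a median of 0.13. Psmd14, the deubiquitinase that strips ubiquitin from substrates, had 360 and 334 normalised counts in LPS libraries and 277 and 273 in control libraries. Its groups did not overlap, and the log2 fold change of 0.33 did not pass (SE 0.181, adjusted p 0.446). Psmd8, the most abundant cap subunit, had 1003 and 981 normalised counts in LPS libraries and 968 and 738 in control libraries, a log2 fold change of 0.22 (adjusted p 0.729). It was 0.43 without control replicate 1 and 0.04 without control replicate 2. Psmd3, a lid subunit, had 421 and 385 normalised counts in LPS libraries and 401 and 287 in control libraries, where the groups overlapped. Its log2 fold change was 0.24 with both controls (edgeR adjusted p 0.733), 0.49 without control replicate 1 and 0.01 without control replicate 2. With the GC and length offsets these values were 0.34 (edgeR adjusted p 0.0965), 0.38 and 0.31. Psmd11, a lid subunit that holds core and cap together, had 623 and 543 normalised counts in LPS libraries and 595 and 473 in control libraries (log2 fold change 0.13). Psmd1, Psmd6, Psmd7, Psmd12 and Psmd13 had log2 fold changes between -0.07 and 0.22, with adjusted p of at least 0.796.

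Assembly factors leave the particle once it is built. Psmd5 (NM_080554, chromosome 2, 34852087 to 34870965), a chaperone of the ATPase ring, had 300.5 and 266 normalised counts in LPS libraries and 197 and 213 in control libraries. The groups did not overlap, and its log2 fold change of 0.47 (SE 0.191) was the largest of all members, with an unadjusted edgeR p of 0.0332 and an adjusted p of 0.263. Psmd9, another chaperone of the ATPase ring, had log2 fold change -0.05. Psmg1, Psmg2 and Psmg3, which help to build the alpha ring, had log2 fold changes of 0.18, 0.10 and -0.11, and Psmg3 had 158 and 142 normalised counts in LPS libraries and 194 and 133 in control libraries. None of the 5 tested assembly genes was called.

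Other regulators of the core were close to level. Psme3, the nuclear PA28 gamma activator, had 390.2 and 352 normalised counts in LPS libraries and 331 and 328 in control libraries, without overlap (log2 fold change 0.17, adjusted p 0.804). Psme4, the activator PA200, had 227 and 279 normalised counts in LPS libraries and 176 and 312 in control libraries. The controls enclosed the LPS values. The log2 fold change was 0.03 with both controls, -0.31 without control replicate 1 and 0.52 without control replicate 2. The GC and length offsets gave 0.21 without control replicate 2. Psmf1, an inhibitor of the core in vitro, had log2 fold change -0.01. Of the pair that are no subunits, Psme3ip1 had 133 and 101 normalised counts in LPS libraries and 87.2 and 87.8 in control libraries (log2 fold change 0.42, adjusted p 0.471), and Psmc3ip had log2 fold change -0.01.

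The 9 genes that were not tested fall into 2 kinds. Psma7, Psmd2, Psmd4, Psmd10, Psme2 and Psmg4 each have 2 records in the table, and no record of theirs held more than 2 counts in a library. Psma7, Psmd2 and Psmd4 encode constitutive parts of the 26S particle, so their values were not read as levels. Of the 45 members with 1 record, all but Psma8 had 10 or more counts over the 4 libraries, and the median was 989. The same contrast held across coding genes, where the most abundant record summed to under 10 counts in 86.3% of 4543 genes with 2 or more records and in 53.3% of 15860 genes with 1 record. How reads matching both records of a gene were counted is not given in the sources used here. Psma8, a testis form of an alpha subunit, was at 0 in every library, which allows up to 3 counts in each. Psmb11, the catalytic subunit of the thymus, had 3 and 2 counts in LPS libraries and 1 and 5 in control libraries, and Psme2b, given above, is the third.

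Per kilobase of transcript, proteasome genes differed widely in level. Psmb6 led with 1782 ± 9.24 normalised counts per kilobase in LPS libraries and 1348 ± 365 in control libraries (SD, n = 2 each). Psmb4 followed with 854 ± 25.2 in LPS libraries and 776 ± 118 in control libraries. Psmb7 had 782 ± 3.73 in LPS libraries and 756 ± 20.2 in control libraries. In controls Psmb4 and Psmb7 did not differ beyond their spread. Over the 13 tested constitutive core genes the median was 351, from 116 for Psma3 to 1565 for Psmb6, a 13.4-fold range although the subunits enter the core in equal numbers. Psmb10 ranked 16 of 42 with 215 ± 1.70 in LPS libraries and 222 ± 35.2 in control libraries. Psmb9 and Psmb8 ranked 40 and 42, with 21.6 ± 12.1 and 17.2 ± 1.10 in LPS libraries and 18.0 ± 2.50 and 15.2 ± 1.71 in control libraries, and did not differ from each other beyond their spread. Transcript lengths are those of the matched GENCODE transcripts, and the ends used in BV-2 cells may differ.

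Among genes that assist, regulate or feed the proteasome, 2 transcription factor genes rose and no other passed the test. The same test called 3.82% of all records higher. Of 22 cofactors 15 were tested and 0 were called, with a median log2 fold change of 0.10. Adrm1, the ubiquitin receptor that docks a deubiquitinase, and Midn, a ubiquitin-independent shuttle, had log2 fold changes of 0.61 and -0.93 with edgeR adjusted p of 0.181 and 0.0979, and were singled out after their values were seen. Of 10 regulators 7 were tested and 2 rose. Nfe2l2, the oxidative stress factor NRF2, had 530 and 487 counts in LPS libraries and 155 and 220 in control libraries (log2 fold change 1.26, adjusted p 0.00168). Nfkb1, the NF-kB p105 subunit, had 589 and 539 counts in LPS libraries and 147 and 191 in control libraries (log2 fold change 1.55, adjusted p 0.000500). Nfe2l1, the factor that restores proteasome genes after inhibition, has 6 records and 0 counts, and Irf1, which drives Psmb8 and Psmb9 after interferon and was named after its values were seen, has 3 records and at most 3 counts in a library. Of 6 antigen-processing partners 4 were tested and 0 were called, with a median of 0.26, and Tap1, the peptide transporter gene beside Psmb9, has 2 records at 0. Of 5 ubiquitin supply genes 2 were tested and 0 were called, with a median of 0.10.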

How the data were processed

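RNA-seq was measured in 4 BV-2 libraries. Libraries were rRNA-depleted, directional, random-primed and read from both ends, per the labels' protocols. The authors deposited whole-number counts per RefSeq record in a table named as normalised. Its totals differ and its median-of-ratios factors run from 0.741 to 1.22, and these deposited values were therefore analysed as raw counts. The submitters' processing notes name HTSeq 0.6.1 and TopHat2 2.0.10, also Cufflinks 2.2.1, Trimmomatic 0.33 and CASAVA 1.8.2, and the mm10 build, without settings.

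Symbols came from RefSeq on GRCm38.p6 and lengths and GC content from GENCODE M21. Groups and replicate numbers came from the sample titles. Records passing filterByExpr (minimum count 10) were scaled by TMM and tested with edgeR 4.0.16 in R 4.3.3 (quasi-likelihood, no covariates, Benjamini-Hochberg over 6981 records, threshold 0.05). Normalised counts are counts over the effective library size times the mean effective size of 3108150. The common biological coefficient of variation was 15.8%. The alternatives were DESeq2 1.42.0, other scalings and filters, counts summed per gene, GC and length offsets, a replicate block and each library left out. The lists of cofactors, regulators, partners and markers, and the naming rule (all members, and of other genes those past the threshold, neighbours of members and Nfe2l1), were written down at the start, but the members and lists were chosen with earlier results of these data known.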

Additional observations from a re-analysis of the deposited data

How the results depend on the processing

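Over 17 alternatives, 13 planned and 4 chosen after seeing the data (GC and length offsets with each library left out), no member was called lower. The members called higher in at least 1 alternative are named above, with the share of all records called beside each set. The count of members called higher, 0 in the reported fit, was 1 with GC and length offsets, 4 with these and the replicate block, 0 to 5 with a library left out, and, with the offsets, 3 without control replicate 1 and 1 without control replicate 2. It was 0 under the other alternatives. The sign of the log2 fold change held in 17 of 42 members under every alternative that kept the member. The filter on a mean of 50 normalised counts left out Psmb8, Psmb9 and Psmc3ip. The median of the tested members, 0.13, ran from 0.090 to 0.19 with a library left out, and with the offsets was 0.051 without LPS replicate 1 and 0.071 without control replicate 2. With a library left out, the fitted difference ran from -0.026 to 0.077 for Psmb8 minus Psmb5, from -0.85 to 0.34 for Psmb9 minus Psmb6 and from -0.22 to 0.052 for Psmb10 minus Psmb7. With the offsets it was -0.040 for Psmb8 minus Psmb5 without LPS replicate 2, -0.89 for Psmb9 minus Psmb6 without LPS replicate 1 and 0.071 for Psmb10 minus Psmb7 without control replicate 2. Over all records, the 267 higher calls became 170.0 where the mean had to reach 50 normalised counts, 456 with the offsets, 401 with the replicate block, 625 with both, 178 to 752 with a library left out, and 498 with the offsets and without control replicate 1. The 119 lower calls became 66 with DESeq2, 209 without a filter, 51 with the mean of 50, 262 with the offsets, 288 with the replicate block, 471 with both, 42 to 601 with a library left out, and, with the offsets, 72 without LPS replicate 2, 245 without control replicate 1 and 263 without control replicate 2. Deviations of same-numbered libraries had a correlation of 0.23 across records, but the labels do not say that a number is shared, so the replicate block is no paired design. A single library left in a group was assumed to vary like the other group. The causes of these shifts were not tested. Depth limits Psmb8 and Psmb9, with 18 to 44 counts a library.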
